A study of Mus musculus with 3 samples.

Results

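The variable genes of the kappa light chain were described gene by gene and cell by cell in spleen B cells of lupus-prone BXD2 mice. All gene rows whose name starts with Igkv were taken, which gave 160 of the 32285 genes in the count matrices. All 160 matched the GENCODE M21 annotation by ID, 100 as functional V genes and 60 as pseudogenes, in 20 families. The mice were female wild-type BXD2, a recombinant inbred strain bred from C57BL/6J and DBA/2J that develops lupus-like autoimmunity. IL-4+R848 mice were injected intraperitoneally with a complex of 5 µg IL-4 and 25 µg anti-IL-4 antibody and then, 2 hours later, with R848 at 40 µg per 20 g of body weight. R848 mice received 25 µg of the anti-IL-4 antibody alone in place of the complex, then the same dose of R848, an agonist of the RNA sensor TLR7. Both treatments were repeated after 2 days, and spleen B cells were purified by negative selection 2 days later. The cells were sequenced as 3 sets of single-cell 5′ libraries, each set a mixture of both treatments told apart by hashtag antibodies. The design gives 3 mice per treatment, but the labels do not say which mice a set holds, so the tests below see the spread between sets, which may be technical.

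Across the 3 sets, 35102 cells passed the filters, 5125, 4579 and 5081 of them from IL-4+R848 mice and 7146, 5641 and 7530 from R848 mice. Median gene UMIs per cell were 6208, 6995 and 5199 in IL-4+R848 cells and 5094, 5932 and 4446 in R848 cells. Cells were clustered without any V, J or light chain constant gene, so kappa use played no part in naming the states. The 18989 follicular-like cells were the largest state. Of the 5 main follicular-like clusters, 99.7% and 96.3% of the cells of 2 came from IL-4+R848 mice and 5.23% and 6.28% of the cells of another 2, so follicular-like values of the treatments come from mostly different clusters. The cluster led by Zbtb32 raised 4 of 6 B-1 markers and 4 of 7 age-associated markers and is named here by that gene only. Cells with both hashtags (1567, 943 and 1312) were removed, but a doublet of 2 cells of 1 treatment was not, and the pairs of sets shared 230, 289 and 219 cell barcodes, where random draws from the kit's barcode list would share 224, 280 and 220.

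A kappa light chain is built when the RAG recombinase joins 1 V gene to 1 J segment upstream of the single constant gene Igkc. A cell whose first light chain makes a self-reactive receptor can recombine again with a V gene farther from the J segments, a process called receptor editing, and can also go on to the lambda locus. Each mature B cell therefore usually carries 1 productive V gene, and a clone keeps the V gene of its founder. Fetal-derived B-1 cells are known in mouse for recurrent receptors such as the Ighv11-2 heavy chain with Igkv14-126, which binds phosphatidylcholine.

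The last 300 coding bases of 6 genes are shown because the results below turn on them. They are Igkv1-135, the leading gene of transitional-like cells, Igkv1-117 and Igkv1-110, a near-identical pair used in every state, Igkv2-137, the gene of the largest plasmablast-like expansion, Igkv14-126, the B-1 gene, and Igkv10-96, the most used follicular-like gene. The sequences are GRCm38 reference sequences read 5′ to 3′ on the coding strand, and capitals mark the 26 bases from the last cysteine codon to the end, the germline part of the third complementarity-determining region. In the order printed, the genes lie at chr6:67609713-67610508, chr6:68121046-68121827, chr6:68270485-68271267, chr6:67555497-67556216 and chr6:67896172-67896642 on the plus strand and, for the last, chr6:68631963-68632442 on the minus strand.
Igkv1-135: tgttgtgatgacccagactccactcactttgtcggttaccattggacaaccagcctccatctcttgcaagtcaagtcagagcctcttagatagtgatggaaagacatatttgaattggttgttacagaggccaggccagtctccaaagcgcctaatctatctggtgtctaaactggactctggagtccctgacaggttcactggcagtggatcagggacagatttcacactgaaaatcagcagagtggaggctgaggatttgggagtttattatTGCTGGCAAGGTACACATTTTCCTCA
Igkv1-117: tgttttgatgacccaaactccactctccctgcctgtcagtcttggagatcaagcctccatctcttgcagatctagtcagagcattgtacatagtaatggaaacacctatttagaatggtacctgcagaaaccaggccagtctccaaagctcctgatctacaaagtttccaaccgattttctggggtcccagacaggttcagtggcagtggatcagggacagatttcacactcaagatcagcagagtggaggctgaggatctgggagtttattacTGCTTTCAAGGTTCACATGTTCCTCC
Igkv1-110: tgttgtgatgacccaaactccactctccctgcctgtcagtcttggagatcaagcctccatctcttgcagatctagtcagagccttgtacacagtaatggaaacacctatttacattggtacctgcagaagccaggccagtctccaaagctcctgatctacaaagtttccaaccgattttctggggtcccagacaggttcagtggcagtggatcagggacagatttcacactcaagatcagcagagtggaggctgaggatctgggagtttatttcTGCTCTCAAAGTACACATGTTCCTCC
Igkv2-137: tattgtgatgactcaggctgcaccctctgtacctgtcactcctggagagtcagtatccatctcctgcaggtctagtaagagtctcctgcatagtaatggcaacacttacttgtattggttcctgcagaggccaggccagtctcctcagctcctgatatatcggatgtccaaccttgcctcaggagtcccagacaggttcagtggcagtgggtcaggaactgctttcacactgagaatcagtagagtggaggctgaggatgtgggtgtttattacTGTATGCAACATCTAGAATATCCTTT
Igkv14-126: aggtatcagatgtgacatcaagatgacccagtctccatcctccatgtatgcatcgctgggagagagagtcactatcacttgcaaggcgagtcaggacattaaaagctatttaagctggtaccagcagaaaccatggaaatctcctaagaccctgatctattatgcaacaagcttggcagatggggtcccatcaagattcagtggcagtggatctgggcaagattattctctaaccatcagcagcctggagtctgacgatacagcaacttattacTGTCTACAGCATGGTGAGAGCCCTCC
Igkv10-96: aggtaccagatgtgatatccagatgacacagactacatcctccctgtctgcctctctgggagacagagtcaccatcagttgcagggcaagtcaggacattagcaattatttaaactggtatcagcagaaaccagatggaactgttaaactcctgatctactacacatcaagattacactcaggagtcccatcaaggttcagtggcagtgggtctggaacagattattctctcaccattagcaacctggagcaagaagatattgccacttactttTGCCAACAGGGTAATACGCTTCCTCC
Igkv1-117 and Igkv1-110 were identical at 97.2% of aligned bases, and Igkv1-135 was 77.4% and 77.9% identical to them, so family 1 holds clearly different genes. The nearest other functional gene was Igkv1-133 for Igkv1-135 (96.7%), Igkv10-94 for Igkv10-96 (95.4%), Igkv14-111 for Igkv14-126 (91.5%) and Igkv2-109 for Igkv2-137 (87.9%). Reads were counted against this C57BL/6J reference, and near-identical copies can share or split reads. Which parental kappa haplotype BXD2 mice carry is not given in the sources used here.

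The 160 genes span chr6:67555497-70704177, with 75 on the plus and 85 on the minus strand. The kept cells held 14291750 Igkv UMIs, 139 genes had at least 1 UMI and 21 had none. The 5 Igkj segments had 0 UMIs, so only the V end of a chain was read. A cell was assigned to its top Igkv gene when that gene had at least 3 UMIs and at least 80% of the cell's Igkv UMIs. By this rule 22635 of 35102 cells (64.5%) were assigned, 8213, 5402 and 9020 in the 3 sets, to 107 genes, 97 of them functional. The other 10 were pseudogenes, on top in 28 cells (0.124% of assigned cells), most often Igkv4-77 with 7 cells and Igkv2-116 with 6 cells. Functional genes thus held nearly all assigned cells.

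The follicular-like repertoire was broad. Among 12073 assigned follicular-like cells, 15 genes held 50% of the cells, 37 genes had at least 1% each, and the 10 most used genes held 37.1%. Igkv10-96 led with 5.13, 4.91 and 4.81% of assigned cells in sets 1 to 3 of IL-4+R848 mice and 5.80, 3.87 and 6.31% in sets 1 to 3 of R848 mice. Igkv1-135 followed with 5.13, 4.62 and 4.57% in IL-4+R848 mice and 4.03, 4.86 and 4.76% in R848 mice. Both genes overlapped between the treatments, and neither stood apart in any set. The next in order were Igkv1-117 at 4.24 ± 0.908%, Igkv6-17 at 3.73 ± 0.396% and Igkv1-110 at 3.56 ± 0.556% (mean ± SD, n = 6 sums). Neighbours in this order differed by less than the larger of their SDs. A sum here is all cells of 1 state, set and treatment, so each state has 6.

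**Figure D1:**
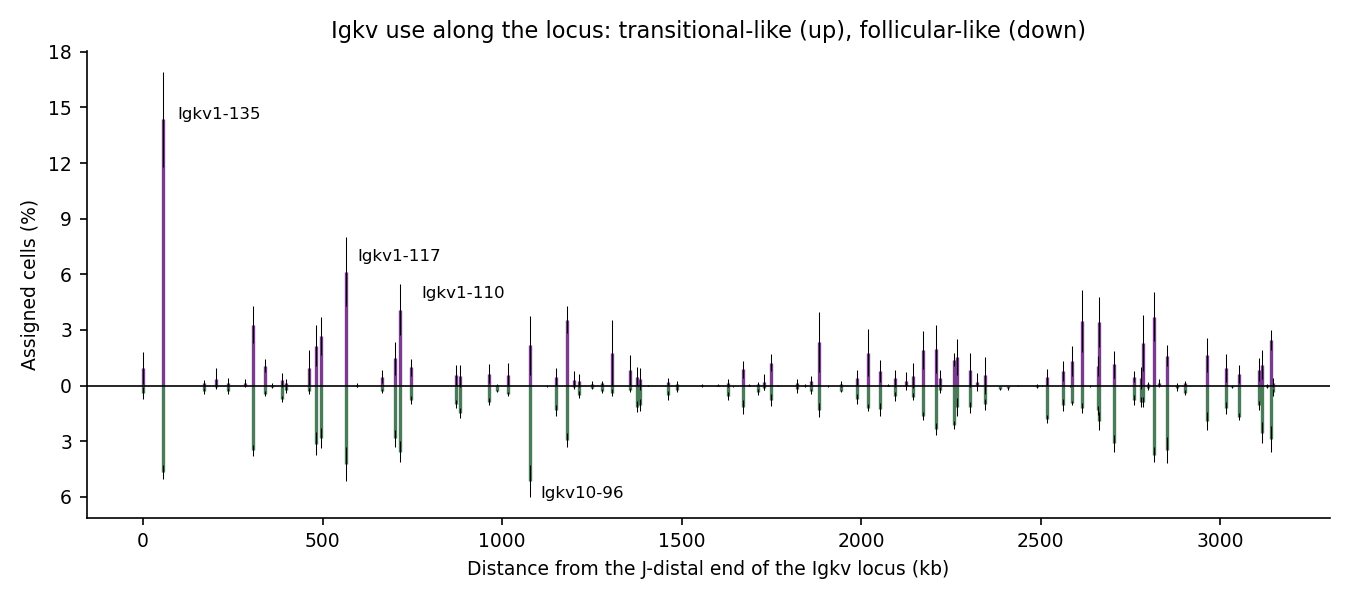
Mean share of assigned cells (%, vertical axis; thin lines are the SD over 6 sums) held by each Igkv gene against its distance in kb from the end of the locus farthest from the J segments (horizontal axis), with transitional-like cells drawn upward and follicular-like cells downward. Follicular-like use is spread along the whole locus, led by Igkv10-96 (5.14%) and Igkv1-135 (4.66%), and transitional-like use peaks at Igkv1-135 (14.4%).

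Assignment differed between sets. In follicular-like cells 65.7, 51.2 and 71.3% of cells were assigned in sets 1, 2 and 3, and 29.7, 45.1 and 22.6% had enough UMIs but a second Igkv gene that kept the first below 80%. In such mixed cells the first gene had a median of 22, 24 and 24 UMIs and the second 9, 6 and 11 UMIs, and the 2 genes were of the same family in 8.59, 7.69 and 8.53% of them. Set 2 thus had the most mixed cells and the weakest second genes. NK cell-like cells, which should carry no light chain, give a background: 4 of 61, 3 of 26 and 2 of 73 passed the rule (6.56, 11.5 and 2.74%). The median over all NK cell-like cells was 2, 5 and 0 Igkv UMIs, against 36, 46 and 30 in follicular-like cells. A single cell gave 18.5, 31.8 and 34.7% of the NK cell-like Igkv UMIs of sets 1, 2 and 3. Free RNA and doublets with a B cell were not told apart. NK cell-like cells had medians of 7026, 9001 and 6849 gene UMIs, against 5053, 6281 and 4455 in follicular-like cells. The background was highest in the set with the most mixed cells, and its part in the mixed cells was not tested. Plasmablast-like cells, with medians of 3478, 3451 and 3472 Igkv UMIs, were assigned in 89.0, 88.3 and 89.2% of cells, so sets differed little where light chain RNA was abundant. By treatment, the assigned share of follicular-like cells averaged 64.1 ± 8.58% in IL-4+R848 mice and 61.0 ± 12.7% in R848 mice (exact permutation test, two-sided, p = 0.70, 0.98 after Benjamini-Hochberg adjustment over 7 states). With 3 sums against 3 this test cannot go below 0.10.

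Transitional-like cells, recent arrivals from the bone marrow, used the far upstream gene Igkv1-135 about 3 times as often as follicular-like cells. Its share was 14.5, 19.1 and 13.02% of assigned transitional-like cells in IL-4+R848 mice and 11.9, 14.7 and 13.01% in R848 mice, or 267 cells in all. All 6 transitional-like values lay above all 6 follicular-like values, which ran from 4.03 to 5.13%. At the UMI level Igkv1-135 averaged 1704 ± 276 CPM (UMIs of the gene scaled to the gene UMIs of the sum) in transitional-like sums and 508 ± 46.1 in follicular-like sums (SD, n = 6 each), a log2 fold change of 1.74 ± 0.08 (SE; edgeR quasi-likelihood test, adjusted p = 2.65e-09). The most abundant single cell gave 0.721% of these transitional-like UMIs, so the level did not rest on a few cells. In bulk-like sums of this kind, more cells with a gene and more RNA per cell cannot be told apart, and the cell shares are the measure of use.

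**Figure D2:**
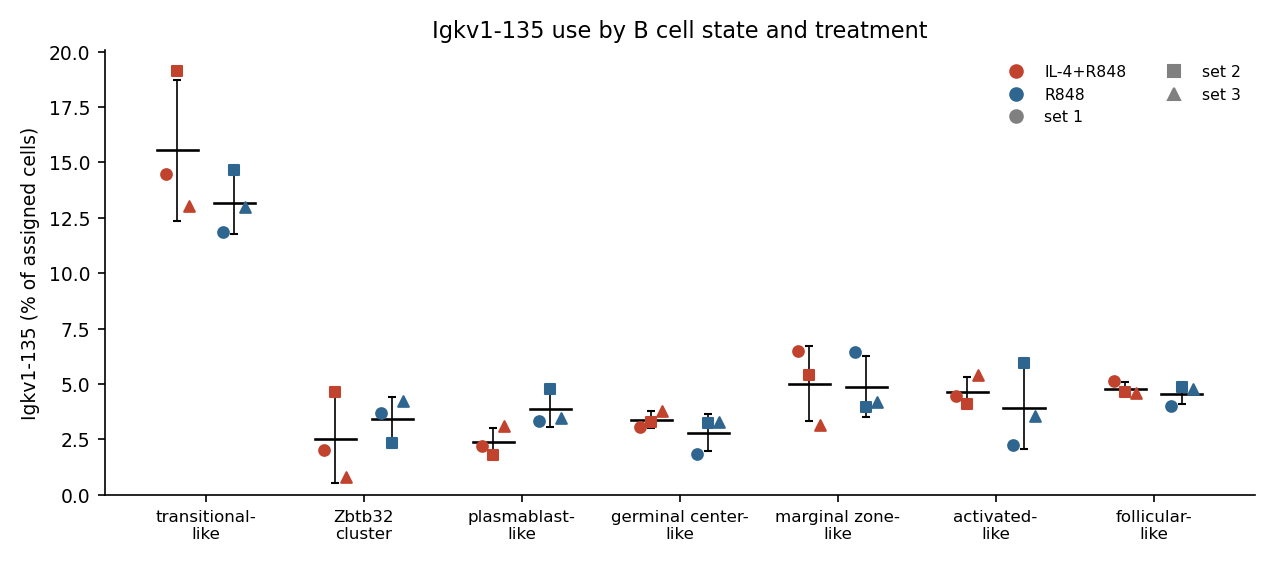
Share of assigned cells whose top gene was Igkv1-135 (%, vertical axis) by B cell state, with 1 point per set and treatment (IL-4+R848 left, R848 right) and the mean of each treatment as a bar with its SD (n = 3). The 6 transitional-like points lie between 11.9% and 19.1%, above every follicular-like point (4.03 to 5.13%).

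The 267 transitional-like cells with Igkv1-135 were not 1 clone. A top Ighv gene could be given to 188 of them, and these carried 63 different Ighv genes, the commonest in 9 cells (4.79%). The effective number of heavy chain V genes, the inverse of the chance that a pair of cells shares a gene, was 54.6 among them and 46.7 among the transitional-like cells with any other Igkv gene. The gene remained at 12.6 to 17.9% of assigned transitional-like cells, and above follicular-like cells in 6 of 6 sums, with assignment at 10 UMIs, at 60% or at 95% of Igkv UMIs. In other states its share was 4.95 ± 1.38% in marginal zone-like, 4.28 ± 1.32% in activated-like and 3.11 ± 1.04% in plasmablast-like cells (SD, n = 6 sums). In the Rag1 cluster, which raised 5 of 6 transitional markers, pooled counts were 8 of 88 assigned cells (9.09%, exact 95% interval 4.01 to 17.1%) in IL-4+R848 mice and 5 of 77 (6.49%, 2.14 to 14.5%) in R848 mice. These intervals cover counting error only, and only 88 of 421 and 77 of 458 cells of that cluster could be assigned.

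Many Igkv genes differed between transitional-like and follicular-like sums, more of them higher than lower. Of 99 Igkv genes tested in transitional-like against follicular-like sums, 46 (46.5%) were called at an adjusted p under 0.05, against 34.4% of all 10386 genes. Among the 46, 38 were higher and 8 lower, against 16.4% and 18% of all genes in each direction, and 14 of them had under 10 assigned transitional-like cells. The median log2 fold change was 0.31 over the Igkv genes and -0.004 over all genes. These levels are relative to all gene UMIs. Median gene UMIs per cell were 2755, 3196 and 2306 in transitional-like and 5053, 6281 and 4455 in follicular-like cells of sets 1 to 3. Median Igkv UMIs per cell were 33, 46 and 31 against 36, 46 and 30. Igkc itself was higher by 0.25 ± 0.05 on the log2 scale (edgeR, adjusted p = 0.00109), in the same direction as most Igkv calls. Igkv1-117 was the second most used gene at 4.82, 8.70 and 5.73% of assigned transitional-like cells in IL-4+R848 mice and 4.40, 8.21 and 5.01% in R848 mice, with a log2 fold change of 1.08 ± 0.09 (edgeR, adjusted p = 5.63e-07). Set 2 was the highest in both treatments for this gene and for Igkv1-135. Igkv8-24 rose by 1.33 ± 0.15, with 64 transitional-like cells, Igkv5-45 by 1.40 ± 0.15, with 7 cells, and Igkv2-137 by 1.21 ± 0.09, with 18 cells (log2; edgeR, adjusted p = 7.99e-06, 4.16e-06 and 1.47e-07). Igkv2-137 was low per cell, with 548 UMIs in transitional-like cells, 80 of which had at least 3. Its follicular-like share was 0.404% with assignment at 3 UMIs and 0.0387% at 10 UMIs. The 8 genes that fell were all numbered under 100, nearer to the J segments, as were 76 of the 99 tested and 26 of the 38 that rose. Among them, Igkv4-74, Igkv10-94, Igkv6-32, Igkv10-96 and Igkv3-7 fell by 1.00, 0.88, 0.76, 0.66 and 0.52 on the log2 scale. Of these, Igkv10-94 missed the threshold without set 1 and without set 2 (edgeR, adjusted p = 0.0793 and 0.0782), Igkv3-7 without set 1 (0.108) and Igkv10-96 without set 3 (0.0758).

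Genes are numbered by their distance from the J segments, so those numbered 100 or more form the distal part. Distal genes held 38.6, 44.3 and 39.6% of assigned transitional-like cells in IL-4+R848 mice and 38.4, 46.6 and 42.4% in R848 mice, against 31.1, 33.4 and 33.2% and 29.7, 34.4 and 29.97% of follicular-like cells. The state means were 41.7 ± 3.37% and 31.96 ± 1.95%, higher in 6 of 6 pairs of sums (exact sign-flip permutation test, two-sided, p = 0.031, the smallest that 6 pairs allow, 0.0938 after adjustment over 6 states). Without the cells of Igkv1-135 the shares were 31.9 ± 3.28% and 28.6 ± 1.97%, again higher in 6 of 6 pairs (exact sign-flip p = 0.031). Most of the difference in distal use was thus in Igkv1-135. Over the 6 states compared with follicular-like cells, the Zbtb32 cluster also had more distal use, 37.1 ± 3.60% (6 of 6 pairs, exact sign-flip p = 0.031, 0.0938 adjusted), and the other 4 had exact p-values between 0.25 and 0.469.

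The effective number of Igkv genes, counted by the same inverse of the chance of a match, was lower in transitional-like cells. It was 28.6, 17.03 and 29.2 in IL-4+R848 mice and 31.7, 22.7 and 29.1 in R848 mice, against 43.5, 39.5 and 44.3 and 44.2, 37.7 and 44.3 in follicular-like cells of the same sets. The means were 26.4 ± 5.47 and 42.3 ± 2.90, lower in 6 of 6 pairs (exact sign-flip p = 0.031, 0.0938 after adjustment over 6 states). With the cells of Igkv1-135 left out, the numbers were 39.2 ± 7.63 and 42.3 ± 3.14, lower in 4 of 6 pairs (exact sign-flip p = 0.25). Marginal zone-like cells averaged 38.0 ± 4.14, lower in 6 of 6 pairs (p = 0.031 by the exact sign-flip test, 0.0938 adjusted). Activated-like cells averaged 45.1 ± 4.63, against 42.8 ± 2.87 in follicular-like cells, higher in 5 of 5 pairs with enough cells (exact sign-flip p = 0.0625, the smallest that 5 pairs allow, 0.125 adjusted). No state passed 0.05 after adjustment, and germinal center-like, Zbtb32 and plasmablast-like cells had exact p-values of 0.719, 0.781 and 0.812.

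**Figure D3:**
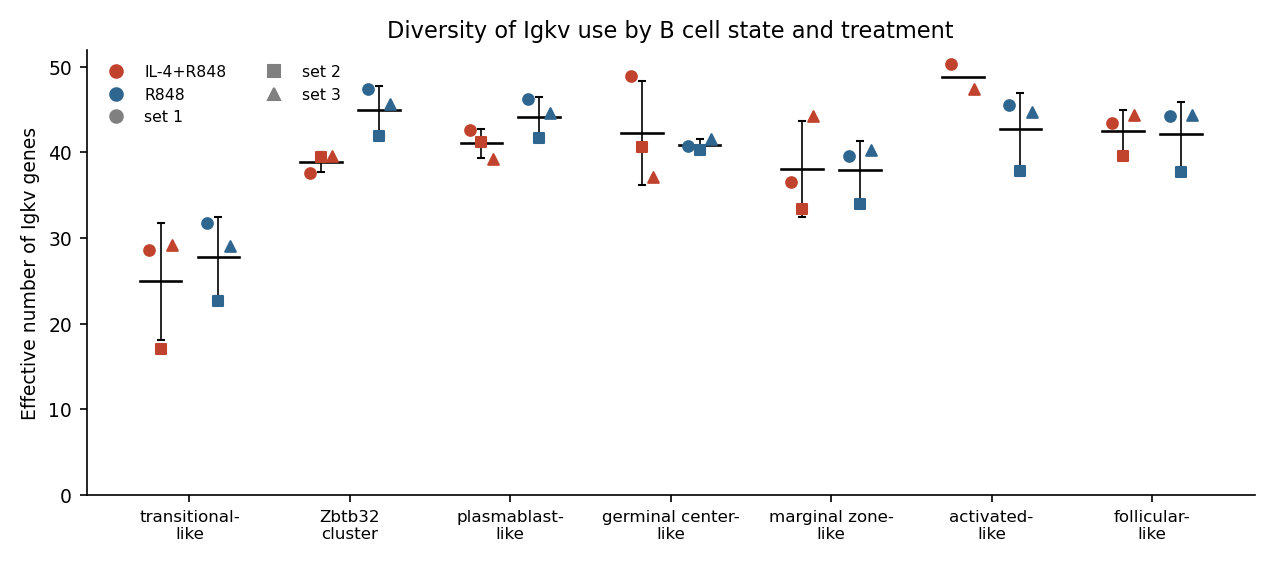
Effective number of Igkv genes among assigned cells (vertical axis) by B cell state, 1 point per set and treatment (IL-4+R848 left, R848 right) with treatment means as short bars and their SD (n = 3). Transitional-like sums (17.03 to 31.7) lie below all follicular-like sums (37.7 to 44.3), and in the Zbtb32 cluster the IL-4+R848 sums (37.6 to 39.5) lie below the R848 sums (41.9 to 47.3).

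The surface antibodies of the same cells gave a readout that the gene counts did not use. Transitional-like cells with Igkv1-135 bound more anti-IgM: their median tag UMIs were 74, 82 and 38 in IL-4+R848 mice and 47.5, 59 and 48.5 in R848 mice, against 55, 44 and 35 and 35, 39 and 34 in transitional-like cells with another Igkv gene. Follicular-like cells with Igkv1-135 had medians of 47, 56 and 42 in IL-4+R848 mice and 15, 18.5 and 13 in R848 mice, against 28, 37 and 33 and 11, 11 and 12 with another gene. The Igkv1-135 median was the higher in 6 of 6 sums of each state (exact sign-flip p = 0.031 in each). After adjustment over the 14 transitional-like and 20 follicular-like genes compared, the p-values were 0.146 and 0.104. Among those genes Igkv1-135 had the largest difference in follicular-like cells and the third largest in transitional-like cells, and 4 of the 20 follicular-like genes were higher in all 6 sums and 2 lower. The same cells had more Igkv UMIs, with medians of 52.5, 63 and 50 and 43, 55 and 37 against 43, 58 and 35 and 32, 46 and 27 in follicular-like cells, while their total gene UMIs were lower in 5 of 6 sums. More Igkv UMIs were not particular to the gene: 13 of the 20 follicular-like genes compared were higher in all 6 sums, and Igkv1-135 ranked 8 among them by the difference. The anti-IgD tag was higher in 3 and lower in 3 of the 6 sums in each state. The part of light chain RNA level in the anti-IgM values was not tested.

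**Figure D4:**
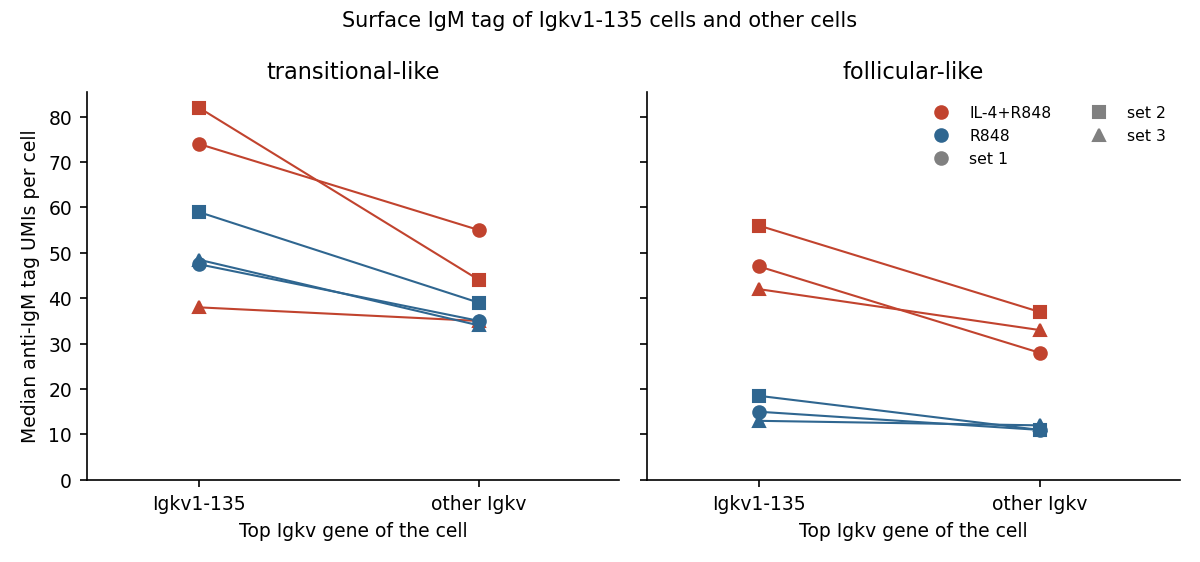
Median anti-IgM tag UMIs per cell (vertical axis) in cells with Igkv1-135 and in cells with another Igkv gene, joined by a line for each set and treatment, in transitional-like and follicular-like cells. All 12 lines are lower at the other genes than at Igkv1-135.

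A small part of the Zbtb32 cluster, 4.08 ± 2.48% of assigned cells (SD, n = 6 sums), carried a light chain gene known from B-1 cells. Igkv14-126, whose product pairs with Ighv11-2 in phosphatidylcholine-binding B-1 cells, was the top gene of 0.408, 2.33 and 6.45% of its assigned cells in IL-4+R848 mice and of 4.53, 6.98 and 3.81% in R848 mice, against 0.470, 0.526 and 0.430% and 0.418, 0.180 and 0.574% of follicular-like cells. The lone low value was set 1 of IL-4+R848 mice, with 1 cell, and the other 5 lay above every follicular-like value. Its UMI level was 410 ± 160 CPM in the Zbtb32 cluster and 62.5 ± 14.2 in follicular-like sums (SD, n = 6 each; log2 fold change 2.62 ± 0.22, edgeR, adjusted p = 5.46e-06).

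In the Zbtb32 cluster the 2 chains were nearly fixed to each other. Of 37 Zbtb32 cluster cells with Igkv14-126 and a top Ighv gene, 34 had Ighv11-2 (91.9%). Elsewhere the heavy chain partner was less fixed. Ighv11-2 was in 20 of 29 such plasmablast-like, 4 of 11 marginal zone-like, 4 of 10 activated-like, 1 of 35 follicular-like and 0 of 11 transitional-like cells. Of 36 Zbtb32 cluster cells with Ighv11-2 and an assigned Igkv gene, 34 carried Igkv14-126 (94.4%, exact 95% interval 81.3 to 99.3%), 1, 3 and 6 in IL-4+R848 mice and 9, 10 and 5 in R848 mice. In follicular-like cells 1 of 8 Ighv11-2 cells did (12.5%, 0.316 to 52.7%). The pair was also in 20 of 22 plasmablast-like cells with Ighv11-2, 0, 2 and 0 in IL-4+R848 mice and 7, 5 and 6 in R848 mice, and all 20 had Ighm, the IgM heavy chain, as their top constant gene. It was seen in 4 marginal zone-like and 4 activated-like cells and in 0 of 1429 transitional-like and 0 of 830 germinal center-like cells with both chains, which allows shares of up to 0.258% and 0.444% (exact 95% upper limits). The second known B-1 pair, Ighv12-3 with Igkv4-91, was in 0, 0 and 0 Zbtb32 cluster cells of IL-4+R848 mice and in 1, 3 and 2 of R848 mice, which were all 6 cells of the cluster with Ighv12-3 and an assigned Igkv gene. Igkv4-91 alone was the top gene of 0.408, 0 and 0.806% of assigned Zbtb32 cells in IL-4+R848 mice and of 1.65, 2.33 and 2.54% in R848 mice, without overlap. The T15 pair, Ighv7-1 with Igkv7-33, was in 1 follicular-like cell and in no cell of the other states.

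**Figure D5:**
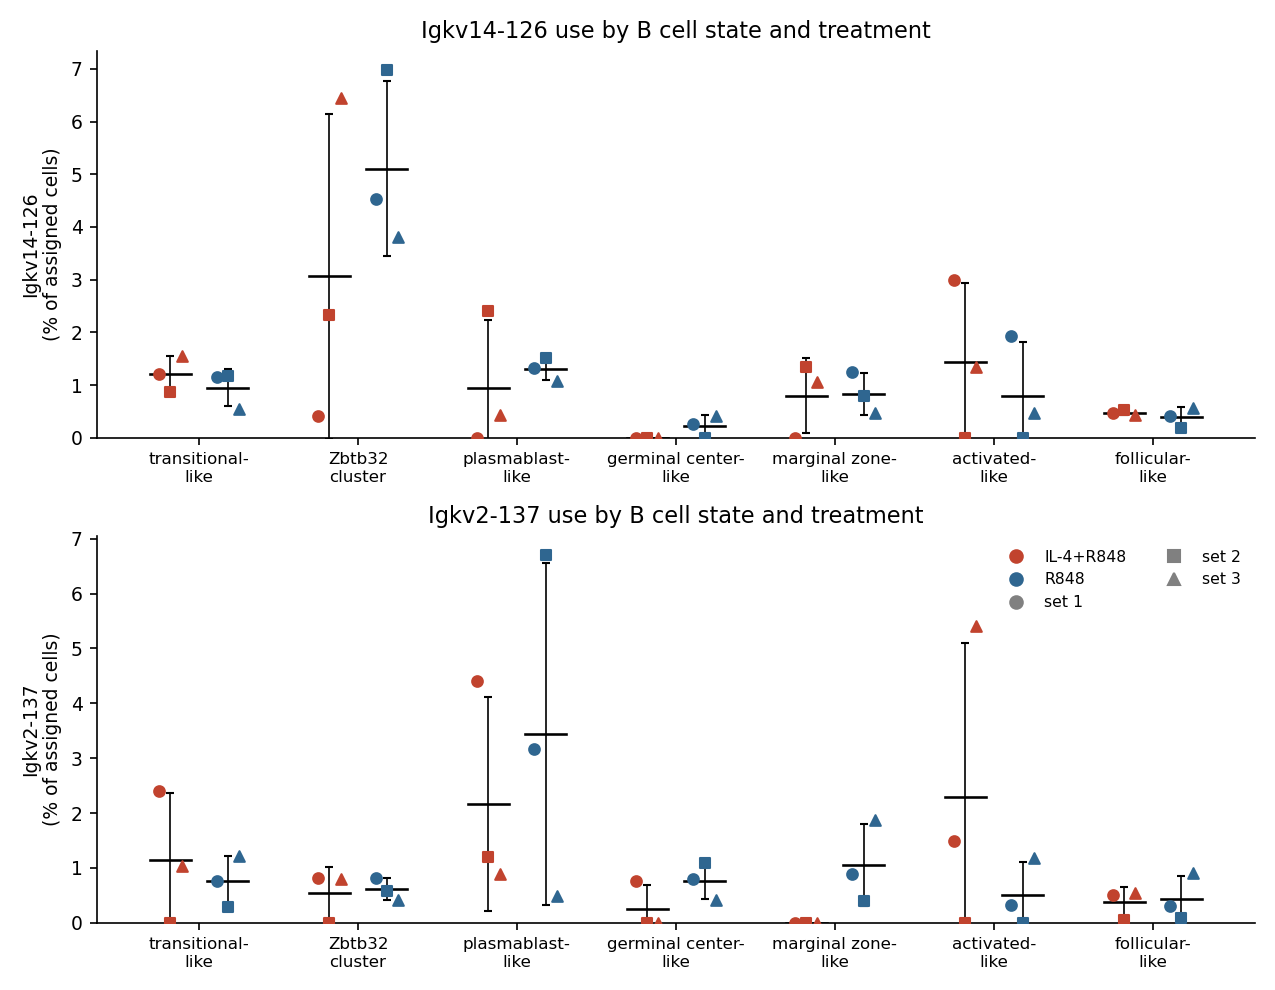
Share of assigned cells (%, vertical axis) whose top gene was Igkv14-126 (first panel) or Igkv2-137 (second panel) by B cell state, 1 point per set and treatment (IL-4+R848 left, R848 right) with treatment means as short bars and their SD (n = 3). Igkv14-126 reaches 6.98% in the Zbtb32 cluster, and Igkv2-137 reaches 6.70% in 1 plasmablast-like sum.

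Of 95 Igkv genes tested between the Zbtb32 cluster and follicular-like cells, 20 (21.1%) were called, against 33.9% of all 10418 genes. Of these, 12 were higher and 8 lower (17.8% and 16.1% of all genes), and the 8 lower ones each had under 10 assigned Zbtb32 cells. Igkv9-124 was higher by 2.38 ± 0.19 on the log2 scale (edgeR, adjusted p = 3.75e-06), but it was the top gene of 26 cells and a single cell gave 24.9% of its UMIs. Of these, 16 had a top Ighv gene, and they carried 12 different ones. Igkv14-111, the nearest relative of Igkv14-126, rose by 0.98 ± 0.19 with 42 cells, and Igkv1-110 by 1.45 ± 0.31 with 58 cells, 1 of which gave 15.6% of its UMIs (log2; edgeR, adjusted p = 0.00264 and 0.00432). Igkv1-99 rose by 1.21 ± 0.28 with 11 cells, 1 of which gave 20% of its UMIs (edgeR, adjusted p = 0.00674, 0.0533 without set 2 and 0.0577 without set 3). Igkv5-37 had 0 UMIs and 0 assigned cells in the cluster, against 870 UMIs and 18 assigned cells in follicular-like cells, too few cells to read a fold. Among the others that fell were Igkv13-85, by 1.02 ± 0.15 with 3 cells, and Igkv4-63, by 1.66 ± 0.42 with 3 cells (edgeR, adjusted p = 0.000298 and 0.0101).

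Plasmablast-like cells, which secrete antibody, had an effective number of Igkv genes of 42.6 ± 2.49, against 42.3 ± 2.90 in follicular-like cells (SD, n = 6 sums; exact sign-flip p = 0.812). Igkv1-117, Igkv10-96 and Igkv1-110 led with 4.88 ± 1.49, 4.70 ± 0.980 and 4.34 ± 0.979% of assigned cells, followed by Igkv3-4 and Igkv1-135 (SD, n = 6 sums). A gene was called expanded in a sum when it was the top gene of at least 5% of assigned cells and had at least 4 times its follicular-like share. Outside plasmablast-like cells, Igkv14-126 met that rule in the Zbtb32 cluster in set 3 of IL-4+R848 mice (6.45%) and set 2 of R848 mice (6.98%). In transitional-like cells of IL-4+R848 mice 4 genes met it in set 2, holding 34.8% of assigned cells, and Igkv8-27 in set 3 (5.73%). Igkv8-19 and Igkv8-24 met it in 1 marginal zone-like sum each (5.19 and 8.11%), and Igkv2-137 in 1 activated-like sum (5.41%). In plasmablast-like cells 1 gene was expanded, in 1 of 6 sums: Igkv2-137, the gene at the far upstream end of the locus, in set 2 of R848 mice. It had 4.41, 1.205 and 0.885% of assigned plasmablast-like cells in IL-4+R848 mice and 3.17, 6.70 and 0.479% in R848 mice, against 0.513, 0.058 and 0.547% and 0.314, 0.090 and 0.902% of follicular-like cells. With assignment at 10 UMIs the plasmablast-like share was 2.81 ± 2.43% and the follicular-like share 0.0387 ± 0.0525%. The plasmablast-like share was thus high in set 1 of both treatments and set 2 of R848 mice and low in the other 3 sums. The share of plasmablast-like cells with an expanded gene was 0, 0 and 0% in IL-4+R848 mice and 0, 6.70 and 0% in R848 mice (exact permutation test, two-sided, p = 1). Without set 2 it was 0 in both. With the rule at 10% of cells no plasmablast-like gene was expanded, and with a stricter hashtag rule (32 UMIs and 10-fold) the means were 1.90% in IL-4+R848 mice and 1.85% in R848 mice.

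Of the 76 plasmablast-like cells with Igkv2-137, 74 had a top Ighv gene, and they carried 26 different ones, led by Ighv9-2 with 31 cells and Ighv1-39 with 9. In set 1 of R848 mice 12 Ighv genes were seen among 19 cells, and in set 2 of R848 mice 6 among 31. With Ighv9-2 the gene was in 0, 0 and 0 plasmablast-like cells of IL-4+R848 mice and in 5, 26 and 0 cells of R848 mice, and 26 of the 29 with a constant gene had Ighg2b, the IgG2b heavy chain. With Ighv1-39 it was in 9 cells of set 1 of IL-4+R848 mice and in no other plasmablast-like sum, 7 of the 9 with Ighg2b. The pair with Ighv9-2 was 26 of 448 cells with both chains in set 2 of R848 mice (5.80%, exact 95% interval 3.83 to 8.39%), the largest share of any pair in a plasmablast-like sum. When each combination of an Ighv and an Igkv gene was counted once per sum, no gene was expanded. In all, 16 pairs reached 5 cells in at least 1 plasmablast-like sum, and they held 3.797, 0 and 2.29% of cells with both chains in IL-4+R848 mice and 9.54, 8.04 and 5.46% in R848 mice. IL-4+R848 mice also had fewer such cells, 395, 161 and 218 against 587, 448 and 806, and a rule of 5 cells is harder to reach in a smaller sum. Among the others were Ighv1-26 with Igkv4-74 (6, 0 and 0 cells in IL-4+R848 mice and 11, 1 and 3 in R848 mice), Ighv1-53 with Igkv3-2 (1, 0 and 0 against 11, 2 and 0) and Ighv3-6 with Igkv3-12 (1, 0 and 0 against 11, 1 and 1). Each of these was largest in set 1 of R848 mice. A pair of gene names is not a clone, since the junctions were not read.

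Switched and IgM plasmablast-like cells did not differ in breadth beyond the spread of the pairs. The effective number of Igkv genes was 42.6, 41.8 and 41.0 in switched cells of IL-4+R848 mice and 39.7, 33.3 and 40.5 in those of R848 mice, against 36.1, 36.3 and 35.5 and 46.3, 43.8 and 48.3 in IgM cells. The means were 39.8 ± 3.36 and 41.1 ± 5.76, higher in switched cells in 3 of 6 pairs (exact sign-flip p = 0.688). The 3 pairs with the higher switched number were those of IL-4+R848 mice and the 3 with the lower were those of R848 mice, which was not tested. In switched cells of set 2 of R848 mice Igkv2-137 was the top gene of 26 of 237 cells (10.97%), and that sum had the lowest number of the 12.

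Germinal center-like cells, marginal zone-like cells and activated-like cells had no leading gene of their own beyond replicate spread. Igkv10-96 led in germinal center-like cells at 6.46 ± 1.35%, followed by Igkv3-2 at 4.48 ± 2.45%. Igkv1-110 and Igkv1-117 led in marginal zone-like cells at 5.30 ± 1.58 and 5.22 ± 1.57%, and Igkv17-127 in activated-like cells at 4.99 ± 2.38% (SD, n = 6 sums). The 5 most used genes of the 7 states made up 12 genes in all: Igkv1-117 was among the 5 in 6 states, and Igkv1-110, Igkv1-135 and Igkv10-96 in 5 states each. In each of these 3 states the first gene exceeded the next by less than the larger SD.

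At the UMI level, relative to all gene UMIs of a sum, nearly all calls of these 3 states were of lower genes. By set, median Igkv UMIs per cell were 39, 52 and 33 in marginal zone-like cells and 35, 43 and 29 in activated-like cells. Germinal center-like cells had 90, 105 and 100, and follicular-like cells 36, 46 and 30. In the same order of states, median gene UMIs were 6896, 8248 and 6066, 6456, 7814 and 5646, and 13435, 15305 and 13776. Follicular-like cells had 5053, 6281 and 4455. A lower CPM is thus not by itself fewer Igkv UMIs per cell. In marginal zone-like against follicular-like sums 42 of 98 Igkv genes (42.9%) were called, against 31.3% of all genes, 1 of them higher and 41 lower, against 15.3% and 16.1% of all genes. In activated-like sums 40 of 98 (40.8%) were called, against 48.6% of all genes, each of them lower, as 23.7% of all genes were. In germinal center-like sums 19 of 97 (19.6%) were called, against 75.7% of all genes, each of them lower, as 39.6% of all genes were, and 17 of the 19 had under 10 assigned germinal center-like cells. In marginal zone-like and activated-like sums 23 of the 42 and 20 of the 40 called genes had under 10 assigned cells of the state. The median log2 fold changes of the Igkv genes were -0.62, -0.64 and -0.65 and those of all genes -0.004, -0.03 and -0.06. Without the block for set and treatment the calls were 23, 26 and 12, against 2866 of 10605, 4747 of 10411 and 8131 of 10772 genes in all. The gene that rose, Igkv8-24, had 62 marginal zone-like cells and a log2 fold change of 0.86 ± 0.24 (edgeR, adjusted p = 0.0142, 0.148 without set 2 and 0.152 without set 3), and its marginal zone-like shares were 1.30, 8.11 and 3.16% in IL-4+R848 mice and 3.41, 6.75 and 3.73% in R848 mice, against 1.84, 2.05 and 1.41% and 1.52, 2.79 and 1.89% of follicular-like cells. It was thus higher than the follicular-like share in 5 of 6 pairs and lower in set 1 of IL-4+R848 mice. Genes with enough cells to read that fell were Igkv6-25, by 1.10 ± 0.10 with 12 marginal zone-like cells, Igkv19-93, by 0.79 ± 0.11 with 29, Igkv3-2, by 0.62 ± 0.09 with 36, and, in activated-like cells, Igkv10-96, by 0.64 ± 0.10 with 53, and Igkv3-7, by 0.99 ± 0.17 with 13 (log2; edgeR, adjusted p = 4.00e-06, 0.000207, 0.000218, 0.000116 and 0.000346, for Igkv3-2 0.0669 without the block). In germinal center-like sums a single cell gave 7.06, 5.89 and 13.1% of all Igkv UMIs of sets 1, 2 and 3, so levels there follow a few cells.

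The study's main question was how IL-4 alters the response to R848, and few commonly used kappa genes differed by it in follicular-like cells. In follicular-like cells 12 of 104 Igkv genes (11.5%) were called between IL-4+R848 and R848, against 16.9% of all 11226 genes. Of the 12, 9 were higher and 3 lower, against 8.6% and 8.29% of all genes. The median log2 difference of the Igkv genes was 0.07. With the set as a block 25 of 104 Igkv genes were called, against 2581 of all 11226 genes. Without set 2 there were 7 of 104, against 874 of all 11239 genes. Of the 12, 2 were common genes outside the up to 5 called genes per direction named for this contrast. Their treatment values are given here after they were seen. Igkv1-117 averaged 417 ± 23.5 CPM in IL-4+R848 mice and 328 ± 41.3 in R848 mice (SD, n = 3 each), without overlap, with a log2 fold change of 0.35 ± 0.09 (edgeR, adjusted p = 0.0194). Its cell shares did overlap, at 4.06, 5.67 and 4.105% in IL-4+R848 mice and 2.98, 4.77 and 3.85% in R848 mice, though each set was higher with IL-4. Igkv14-111 averaged 245 ± 24.0 CPM in IL-4+R848 mice and 173 ± 27.2 in R848 mice, with a log2 fold change of 0.50 ± 0.11 (edgeR, adjusted p = 0.00915) and shares of 2.90, 3.57 and 2.50% against 2.67, 3.15 and 2.30%.

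The other 10 called genes were rare, each with a mean share under 0.6% of assigned follicular-like cells over the 6 sums. Igkv4-50, the most used of them, had 0.513, 0.351 and 0.586% in IL-4+R848 mice and 0.523, 0.629 and 0.943% in R848 mice, with a log2 fold change of -0.58 ± 0.12 (edgeR, adjusted p = 0.00774, 0.0818 without set 2). Igkv1-88 rose by 0.60 ± 0.12, with shares of 0.470, 0.585 and 0.508% in IL-4+R848 mice and 0.418, 0.090 and 0.246% in R848 mice, and Igkv5-45 rose by 0.62 ± 0.11 with 20 and 11 assigned cells (log2; edgeR, adjusted p = 0.00694 and 0.00396, for Igkv5-45 0.0557 without set 2). Igkv4-91, the B-1 gene, fell by 0.50 ± 0.14, with 30 follicular-like cells of IL-4+R848 mice and 31 of R848 mice (edgeR, adjusted p = 0.0322, 0.119 without set 1 and 0.0616 without set 3). In cell shares the 5 most used follicular-like genes overlapped between the treatments.

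In the smaller states the called genes were few, with a median of 4 to 20 assigned cells per called gene by state. Called were 6 of 77 genes in marginal zone-like (7.79%, against 1.05% of all genes), 8 of 86 in transitional-like (9.30%, against 1.58%), 4 of 71 in activated-like (5.63%, against 0.986%), 2 of 82 in germinal center-like (2.44%, against 0.288%) and 7 of 78 in the Zbtb32 cluster (8.97%, against 2.35%). With the set as a block the counts were 9, 14, 6, 6 and 8, against 105, 180, 102, 145 and 250 over all genes. Without set 2 they were 13 in marginal zone-like, 13 in transitional-like, 7 in activated-like and 7 in germinal center-like cells, against 54, 58, 62 and 17 over all genes. They were 11 in activated-like cells without set 3 (51 over all genes) and 7 in germinal center-like cells without set 1 (16 over all genes). These runs tested 71 to 86 Igkv genes and 8406 to 9761 genes in all. V gene UMIs come in whole cells, so 1 cell can give many of the UMIs of a gene, here and in the comparisons between states. The part of this in the calls was not tested. The difference of the IL-4 effect from that in follicular-like cells, tested with an interaction term chosen after the values were seen, was called for 12 of 104 Igkv genes in marginal zone-like (3.73% of all genes), 13 of 103 in transitional-like (2.48%), 8 of 101 in activated-like (1.28%), 4 of 105 in germinal center-like (2.67%) and 4 of 101 in Zbtb32 cells (0.301%). In the Zbtb32 cluster a single cell gave 24.2 to 67.7% of the UMIs of each named gene in the higher treatment.

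In transitional-like cells 5 of the 8 called genes had at least 10 assigned cells. Igkv8-27 was the top gene of 3.61, 5.22 and 5.73% of assigned cells in IL-4+R848 mice and 2.49, 1.76 and 2.03% in R848 mice, without overlap, with a log2 fold change of 1.22 ± 0.13 (edgeR, adjusted p = 0.000188), and it stayed past the threshold under every alternative run. Igkv10-96 had 1.205, 0.870 and 0.521% in IL-4+R848 mice, 3 cells in all, and 4.02, 4.11 and 2.30% in R848 mice, 52 cells, with a log2 fold change of -1.03 ± 0.20 (edgeR, adjusted p = 0.0193, 0.124 without set 2). Igkv6-15 fell by 0.81 ± 0.12 and Igkv15-103 by 2.71 ± 0.29 (edgeR, adjusted p = 0.00405 and 0.000224), the second with 0 cells of IL-4+R848 mice and 17 of R848 mice. Igkv6-15 missed the threshold without set 2 and without set 3 (adjusted p = 0.0894 and 0.0526), and Igkv15-103 fell by 0.80 under a stricter hashtag rule (adjusted p = 0.632). These genes did not overlap between treatments in the UMI levels. Elsewhere, Igkv12-44 rose by 1.17 ± 0.24 in marginal zone-like cells with 11 and 25 cells, Igkv6-17 fell by 1.49 ± 0.29 in activated-like cells with 5 and 43 cells, and Igkv6-32 fell by 2.23 ± 0.32 in germinal center-like cells with 3 and 25 cells (log2; edgeR, adjusted p = 0.0361, 0.0232 and 0.0244; cells of IL-4+R848 mice first in each count). Each of these calls was lost without at least 1 set: Igkv12-44 without set 1 (0.116), Igkv6-17 without set 1 or set 2 (0.179 and 0.205) and Igkv6-32 without set 2 or set 3 (0.0980 and 0.0658), as adjusted p by edgeR. Igkv1-133 had 0 UMIs and 0 assigned cells in marginal zone-like cells of IL-4+R848 mice, against 218 UMIs and 4 assigned cells in those of R848 mice, too few cells to read a fold. The other genes called there as lower, apart from Igkv3-5, had 1 UMI each in IL-4+R848 mice, such as Igkv12-98 with 1 UMI and 0 assigned cells against 322 UMIs and 4 assigned cells, a ratio of 0.0155 (exact 95% counting interval 0.000391 to 0.0869). Its direction turned under a stricter hashtag rule and at a coarser clustering, with log2 fold changes of 0.35 and 0.55.

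In the Zbtb32 cluster the cell shares of 1 common gene, singled out after its values were seen, did not overlap between the treatments. Igkv10-96 had 8.16, 8.53 and 7.26% of assigned cells in IL-4+R848 mice and 3.70, 4.65 and 5.93% in R848 mice, but was not called at the UMI level. An exact test of 3 sums against 3 cannot go below 0.10, and how many genes had shares without overlap was not counted. The effective number of Igkv genes in the cluster was 37.6, 39.5 and 39.5 in IL-4+R848 mice and 47.3, 41.9 and 45.7 in R848 mice, 38.9 ± 1.13 and 45.0 ± 2.79 (SD, n = 3 each; exact permutation test, two-sided, p = 0.10, the smallest possible, 0.60 after adjustment over 6 states). The number in plasmablast-like cells was 41.0 ± 1.69 in IL-4+R848 mice and 44.1 ± 2.32 in R848 mice (exact p = 0.20, 0.60 adjusted), and in the other 4 states tested the exact p-values were 0.60 to 1. Of the activated-like sums 1 had 49 assigned cells, under the minimum of 50, so that state was not tested by treatment.

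In plasmablast-like cells 0 of 97 Igkv genes were called by treatment with edgeR, as were 0% of all 10284 genes. At an unadjusted p under 0.05 there were 15 Igkv genes, and the number over all genes was not counted. DESeq2 called 3 of 97 Igkv genes, against 35 of all 10268 genes. Shares of some common genes did not overlap, genes singled out after their values were seen: Igkv1-117 had 4.66, 6.02 and 7.08% of assigned cells in IL-4+R848 mice and 4.17, 2.81 and 4.55% in R848 mice, and Igkv4-59 had 4.41, 4.82 and 2.65% in IL-4+R848 mice and 1.83, 1.73 and 1.92% in R848 mice. Igkv1-135 ran the other way, with 2.21, 1.81 and 3.10% in IL-4+R848 mice and 3.33, 4.75 and 3.47% in R848 mice. How many genes had shares without overlap was not counted, and an exact test of 3 sums against 3 cannot go below 0.10. These shares are thus no evidence of an IL-4 effect.

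The other genes of the light chain were followed as a list of 18: Igkc, the 5 Igkj segments, the lambda constant genes Iglc1, Iglc2 and Iglc3, the lambda variable genes Iglv1, Iglv2 and Iglv3, the recombinase genes Rag1 and Rag2 and the surrogate light chain genes Vpreb1, Vpreb2, Vpreb3 and Igll1. Of these, 8 could be tested in transitional-like against follicular-like sums and all 8 were higher, against 16.4% of all genes, with a median log2 difference of 1.08, against -0.004 over all genes. One of them, Vpreb3, was a marker that named the state and is no finding. Iglv2, Iglv1 and Iglv3 rose by 1.69 ± 0.11, 1.41 ± 0.13 and 1.36 ± 0.07 on the log2 scale and Iglc1 by 0.80 ± 0.05 (edgeR, adjusted p = 2.49e-08, 1.09e-06, 5.62e-09 and 1.63e-08), while Igkc rose by 0.25 ± 0.05. Relative to all gene UMIs, transitional-like sums thus had more lambda V gene RNA as well as more Igkv1-135. Transitional-like cells had fewer gene UMIs, with medians of 2755, 3196 and 2306 against 5053, 6281 and 4455 in follicular-like cells. A higher or lower level of this list is thus not by itself more or less RNA per cell, which was not tested. In the Zbtb32 cluster 2 of 8 were higher and 2 lower, against 17.8% and 16.1% of all genes, Igkc among the higher at 0.43 ± 0.08 (edgeR, adjusted p = 0.00191), and in marginal zone-like, activated-like and germinal center-like sums 4, 8 and 6 of 8 were lower, against 16.1, 23.7 and 39.6% of all genes, and none was higher.

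With IL-4 the same list changed in follicular-like cells, where 6 of 9 tested genes rose and none fell, against 8.6% and 8.29% of all genes. Vpreb3, a relative of the surrogate light chain genes, rose by 1.07 ± 0.05, and Iglv2, Iglv3, Iglv1, Iglc1 and Iglc3 by 0.47 ± 0.11, 0.41 ± 0.10, 0.38 ± 0.10, 0.33 ± 0.06 and 0.18 ± 0.05 (log2; edgeR, adjusted p = 9.60e-07, 0.0152, 0.0189, 0.0282, 0.00283 and 0.0440). Igkc did not pass, at -0.08 ± 0.06 (edgeR, adjusted p = 0.414). In the Zbtb32 cluster Vpreb3 rose by 1.43 ± 0.12 and Igkc, Iglc2 and Iglc1 fell by 0.48 ± 0.09, 0.43 ± 0.07 and 0.58 ± 0.12 (edgeR, adjusted p = 0.000188, 0.0181, 0.0121 and 0.0339). In the Zbtb32 cluster 2.35% of all genes were called in either direction. In activated-like cells 1 of 8 rose, Vpreb3, against 0.986% of all genes called, and edgeR called 0 of 8 in each of the other 4 states.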

How the data were processed

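Single-cell 5′ libraries of 3 sets of BXD2 spleen B cells were analysed, each set a mixture of IL-4+R848 and R848 cells. The deposited matrices hold raw counts: UMI counts per gene and per antibody tag in each cell barcode. The submitters' processing notes name Cell Ranger 6.0.1, Seurat 4.1.3 and the mm10 build. They do not say how reads shared by near-identical V genes were counted.

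Cells were given a treatment when 1 hashtag had at least 64 UMIs and 4 times the other, and cells under 500 genes or with 10% or more of mitochondrial UMIs were left out. They were clustered with scanpy 1.11.5 and leidenalg 0.10.2 (2000 variable genes, 30 components, 15 neighbours, resolution 1), leaving out V, J and light chain constant genes, and clusters were named from marker lists. No doublet caller was run. UMI counts were summed per state, set and treatment. States with at least 50 cells in each sum were tested with edgeR 4.0.16 (quasi-likelihood, TMM, filterByExpr, Benjamini-Hochberg over all genes), with the set and treatment as a block between states and no block between treatments. DESeq2 1.42.0 was an alternative. CPM values are relative to all gene UMIs of a sum. Shares and effective numbers (unbiased inverse Simpson index) were compared with exact permutation tests. Named genes are the 5 most used of each state, expanded genes, up to 5 called genes per direction and contrast, known antibody pairs and 18 light chain genes. The gene rows, the members, the lists and the named-gene rule were chosen with earlier results of these data known. Intervals are exact Clopper-Pearson intervals at 95% and cover counting error only. The edgeR steps were tested on simulated data. Coding sequences were taken from GENCODE M21 on GRCm38.

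The sets are libraries shared by both treatments, so the set number pairs the sums by the labels. Across genes, the deviations from the treatment means of the 2 sums in a set had correlations of 0.163, 0.194 and 0.191 in follicular-like cells and of under 0.1 in most other states.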

Additional observations from a re-analysis of the deposited data

Results flagged for a closer look

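Of 53 groups of 6 sums examined, 5 had 1 sum far from the rest by Dixon's criterion, where chance gives about 1 in 20 groups. Igkv1-110 was at 8.42% of assigned marginal zone-like cells in set 3 of IL-4+R848 mice, with 8 cells, against 4.05 to 5.19% in the other 5 sums. The effective number of Igkv genes in germinal center-like cells was 48.9 in set 1 of IL-4+R848 mice, above the other 5. Igkv1-117 was at 6.56% of germinal center-like cells in set 2 of IL-4+R848 mice, 1 of the sums with the fewest assigned cells, and at 2.97% of Zbtb32 cluster cells in set 3 of R848 mice, below the other 5. The share of plasmablast-like cells with an expanded gene was 6.70% in set 2 of R848 mice and 0 elsewhere, which is Igkv2-137.

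For 9 genes the effect of IL-4 differed between a state and follicular-like cells by an interaction term in edgeR. The test was chosen after the values were seen, and its p was adjusted over all genes. The 9 had a mean share of at least 1% in both states and were also called by treatment in the state itself. Genes without that call were left out, such as Igkv19-93 in transitional-like cells (-0.59 ± 0.14, edgeR interaction, adjusted p = 0.0342). In log2 units, state minus follicular-like, the differences were 1.01 ± 0.24 for Igkv12-44 in marginal zone-like cells, 1.12 ± 0.20 for Igkv8-27, -0.95 ± 0.25 for Igkv10-96 and -0.65 ± 0.16 for Igkv6-15 in transitional-like cells, -1.63 ± 0.31 for Igkv6-23 and -1.53 ± 0.26 for Igkv6-17 in activated-like cells, -2.39 ± 0.35 for Igkv6-32 in germinal center-like cells, and -3.56 ± 0.52 for Igkv19-93 and -3.14 ± 0.39 for Igkv3-12 in the Zbtb32 cluster (SE). Their adjusted p-values were 0.0263, 0.00422, 0.0493, 0.0365, 0.0177, 0.0117, 0.00770, 0.0259 and 0.0121 in that order. The 2 Zbtb32 values had no matching split of the cell shares: Igkv19-93 had 1.63, 0.775 and 1.61% of assigned cells in IL-4+R848 mice and 0.412, 2.33 and 2.12% in R848 mice, and Igkv3-12 had 0.408, 1.55 and 2.42% in IL-4+R848 mice and 3.29, 2.91 and 1.27% in R848 mice.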

How the results depend on the processing

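Counts of called Igkv genes moved with the filter on low counts, with the block and with the tool. Without the filter, calls by treatment were 22 in follicular-like, 44 in marginal zone-like, 42 in transitional-like, 40 in activated-like, 31 in germinal center-like, 42 in Zbtb32 and 2 in plasmablast-like cells. Calls by state were 64 in activated-like, 36 in germinal center-like and 37 in Zbtb32 cells. These runs tested 112 to 130 Igkv genes. In the same order, all genes called were 2139 of 17239, 312 of 14943, 340 of 14100, 313 of 14452, 207 of 15963, 484 of 14764 and 8 of 16557 by treatment. By state they were 5201 of 17480, 8986 of 18060 and 3918 of 17619. DESeq2 called 32 in germinal center-like cells by state and 3 in plasmablast-like cells by treatment, against 7675 of 10772 and 35 of 10268 genes in all. With the replicate block for set, treatment calls were 25 in follicular-like, 14 in transitional-like and 6 in germinal center-like cells, against 2581, 180 and 145 over all genes. For the exact tests of shares and effective numbers the block ended no call, since none had passed. Without the block, state calls were 23 in marginal zone-like, 26 in activated-like and 12 in germinal center-like cells, against 2866, 4747 and 8131 over all genes. Leaving out 1 set at a time gave 7 to 16 treatment calls in follicular-like, 8 to 13 in marginal zone-like, 9 to 13 in transitional-like, 4 to 11 in activated-like, 3 to 7 in germinal center-like and 0 to 1 in plasmablast-like cells. Over all genes these runs called 874 to 1231, 54 to 74, 58 to 98, 51 to 62, 12 to 17 and 1 to 4 in the same order. The stricter hashtag rule left 1 call among 72 Igkv genes in germinal center-like cells by treatment, against 9 of all 9130 genes. With assignment at 60% of Igkv UMIs, the treatment difference of the assigned share in plasmablast-like cells was 0.127 percentage points, and the effective number of plasmablast-like minus follicular-like cells was -2.73; at 95% it was 5.14. The log2 fold change of Igkv12-98 by treatment in marginal zone-like cells reversed to 0.35 under the stricter hashtag rule and 0.55 at Leiden resolution 0.6. The causes were not tested.

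Of 70 results for named genes, 35 stayed past the threshold under every alternative run that tested the gene. Another 34 lost the call under at least 1 run, and 1 reversed. At the coarser clustering no cluster was named activated-like, so the named genes of that state were not tested there. Depth limits the small states: below about 100 assigned cells a share rests on few cells, and UMI levels on single cells.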
